A study of Mus musculus with 6 samples.

Results

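Nuclear genes for oxidative phosphorylation were examined in the hippocampus of *LAO1* KO pups that had been nursed on different milk. The set was defined by gene symbol, as all symbols on the array that start with Nduf, Uqcr, Cox4, Cox5, Cox6, Cox7, Cox8 or Atp5, together with *Sdha*, *Sdhb*, *Sdhc*, *Sdhd* and *Cyc1*. It held 94 of 19505 genes with a symbol, and each of the 94 lay on 1 transcript cluster, the group of probes that the array reads as 1 gene. Grouped into complexes by symbol, there were 38 subunits and 8 assembly factors of complex I, 4 genes of complex II, 9 of complex III, 18 of complex IV and 17 of complex V. Male pups (as labelled) of postnatal day 10 were compared, 3 *LAO1* KO with KO milk, whose nursing mothers were LAO1 KO, and 3 *LAO1* KO with WT milk, whose nursing mothers were WT. All pups of both groups carried the knockout of *LAO1*, the L-amino acid oxidase that generates hydrogen peroxide in milk, on a C57BL/6Jcl background, and milk was exchanged by cross-fostering of newborns. RNA of the whole hippocampus was hybridized to 1-colour Clariom S arrays, 1 array per sample, and levels are log2 intensities, so a difference of 1 is a 2-fold change.

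Oxidative phosphorylation is the last stage of respiration in mitochondria. Complexes I and II feed electrons from NADH and succinate to ubiquinone, complex III passes them to cytochrome c, complex IV reduces oxygen, and complex V, the ATP synthase, uses the proton gradient to make ATP. Most subunits are encoded in the nucleus, and neurons depend heavily on the pathway during postnatal growth. Brightness of different clusters depends on their probes, so intensities were compared between arrays and never between genes. In bulk tissue, fewer cells of a type and less RNA per cell cannot be told apart.

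Some arrays stood apart. KO milk replicate 3 lay 0.479 to 0.537 from the others (root mean square difference over clusters, log2), which lay 0.321 to 0.407 from one another. The mean signal of *Uty*, *Kdm5d* and *Eif2s3y*, all on chromosome Y, was 3.26, 9.98 and 3.35 on KO milk replicates 1, 2 and 3, against 10.45, 3.56 and 9.97 on WT milk replicates 1, 2 and 3, although all pups are labelled male. The methods state that newborn mice of either sex were used. For genes that lay over 0.5 below or above the other arrays on KO milk replicate 3, each fold change described in the text is given with and without it.

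Levels of these genes differed little between the milk groups. Fold changes are given on the log2 scale, with KO milk over WT milk. Their median was -0.02 over the 94 genes, beside 0.00 over all 22206 clusters. Of the 94 genes, 56 had a fold change below 0 and 38 above 0, with a range of -0.49 to 0.42. The number below 0 was 44 after quantile normalization and 46 after cyclic loess. For 76 genes the size was under 0.25, and 0 genes exceeded 0.5. After Benjamini-Hochberg adjustment over all clusters, limma called 0 of the 94 genes at 0.05, where 0% of all clusters were called. At an unadjusted p under 0.05 limma called 0 genes higher, beside 1.61% of all clusters, and 1 gene lower, beside 1.66% of all clusters. The unadjusted 95% interval of each of the 94 fold changes lay inside a 2-fold change in either direction, with a median half-width of 0.43, and 34 of them lay within 0.5 of 0. These p-values measure the spread between samples within each group. The sources used here do not give the litter or nursing mother of each pup, so the spread between mothers may not be covered.

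**Figure D1:**
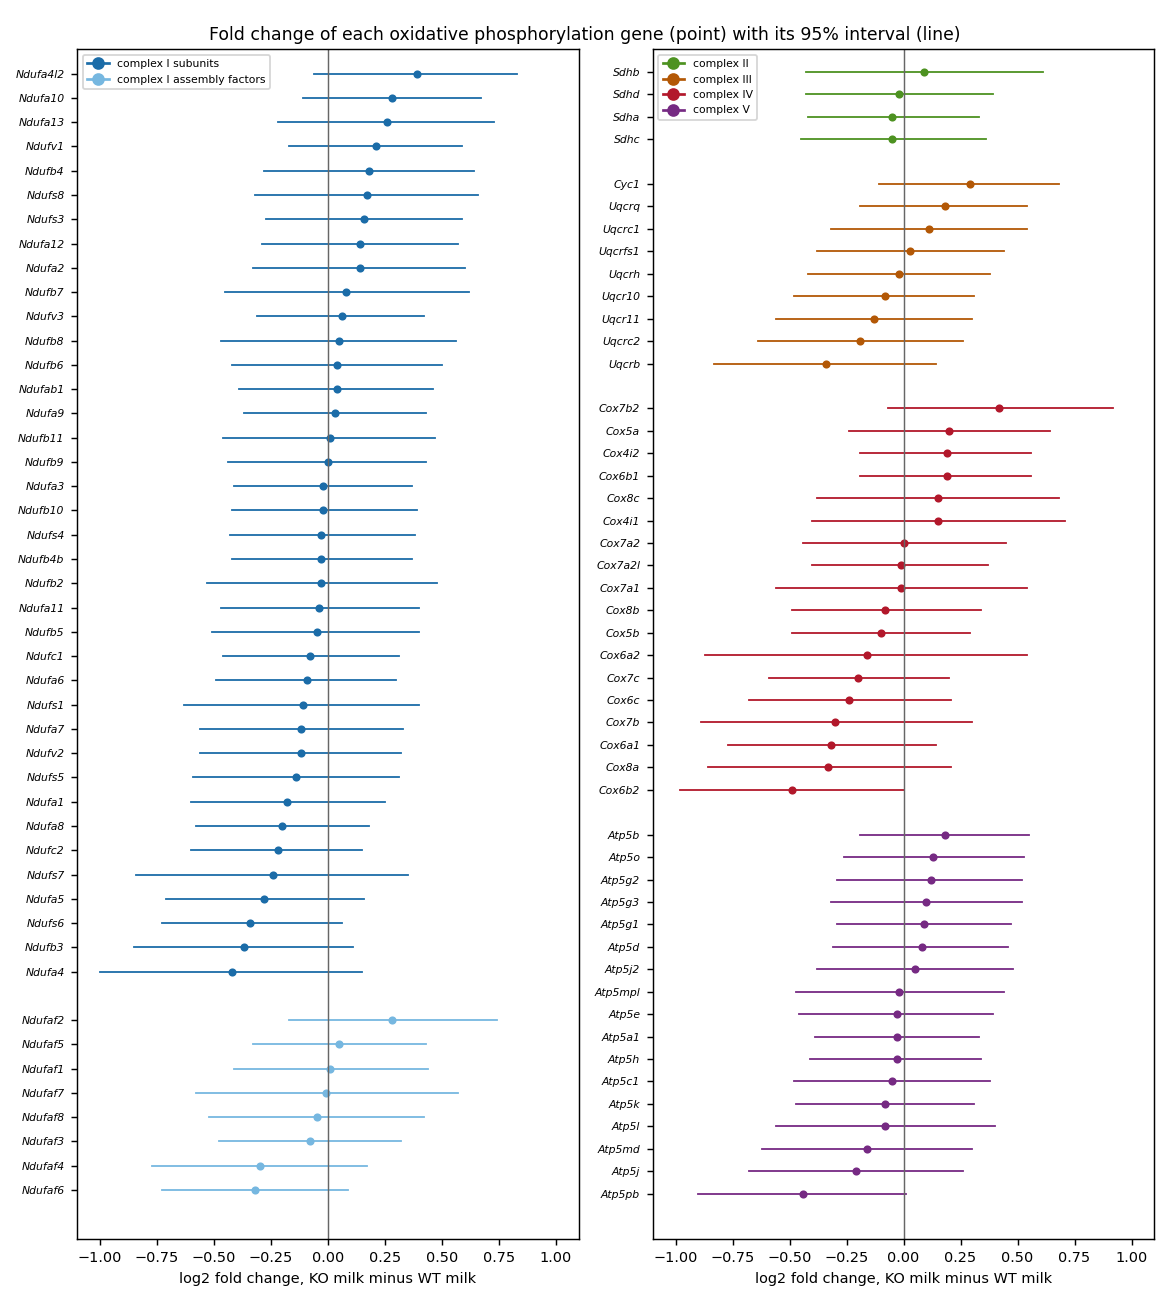
Log2 fold change (x axis, KO milk over WT milk) of each of the 94 genes, ordered within each complex, with points for the estimates and lines for the 95% intervals from limma. Estimates run from -0.49 (*Cox6b2*) to 0.42 (*Cox7b2*), and nearly every interval crosses 0.

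The groups did not overlap for 13 genes. KO milk was higher for 7 of them (7.45% of the 94, beside 4.26% of all clusters), namely *Ndufa10*, *Ndufv1*, *Cyc1*, *Uqcrq*, *Cox4i2*, *Cox6b1* and *Atp5b*. KO milk was lower for 6 (6.38%, beside 4.17% of all clusters), namely *Ndufs6*, *Ndufb3*, *Ndufc2*, *Ndufaf6*, *Uqcrb* and *Atp5pb*. Several of the 13 were close to ties. The nearest KO milk and WT milk values were 14.08 and 14.08 for *Cox6b1* (equal after rounding) and 13.27 and 13.26 for *Ndufv1*. They were 16.21 and 16.22 for *Uqcrb*, and further apart for others, such as 8.47 and 8.57 for *Ndufaf6*. Directions were mixed for the subunits of complex I (2 higher, 3 lower), for complex III (2 higher, 1 lower) and for complex V (1 higher, 1 lower). Complex IV held 2 higher and 0 lower genes. The assembly factors held 0 higher and 1 lower, and complex II held 0 of either. With 3 arrays against 3, an exact two-sided permutation test gives p = 0.1 for each of these genes, the smallest value it can give.

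Promoters of the set were read from RefSeq (GRCm38.p6) as windows from 250 bases before to 50 bases after each start, and 77 of the 94 genes had a window. Binding motifs of 3 factors known to control respiratory chain genes were searched on both strands. The NRF1 motif (GCGCANGCG) was found for 22 of the 77 genes (28.6%, beside 10.2% of 15691 genes of the array with a window). The ETS motif that GABP binds (CCGGAAG) was found for 19 (24.7%, beside 13.2%), and the YY1 motif (AANATGGC) for 19 (24.7%, beside 7.55%). At least 1 motif was found for 49 genes (63.6%, beside 26.4%). Genes with the NRF1 motif had a median log2 fold change of -0.05 (range -0.34 to 0.18), and the 55 without it had one of -0.01. The median was -0.03 both with and without the GABP motif, and it was -0.05 with and -0.02 without the YY1 motif. A match is a description of the letters and shows no binding.

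The windows of 5 genes are shown 5′ to 3′ in the direction of the gene, with motif matches in capitals. *Ndufs6* and *Atp5pb* had KO milk values below all WT milk values, *Cox6b2* had the smallest p, *Cox6a1* had 3 NRF1 matches (2 of them overlapping) and was low on 1 KO milk array, and *Sdhd* had a log2 fold change of -0.02. They lie on the minus strand at chr13:73328433-73328732 (*Ndufs6*), chr9:50603800-50604099 (*Sdhd*), chr5:115348909-115349208 (*Cox6a1*), chr7:4753045-4753344 (*Cox6b2*) and chr3:105959214-105959513 (*Atp5pb*). *Ndufs6* held 1 NRF1 and 1 YY1 match, *Sdhd* 1 NRF1 and 1 GABP match, *Cox6a1* also 1 GABP match, *Atp5pb* 1 YY1 match and *Cox6b2* 0 matches.
Ndufs6: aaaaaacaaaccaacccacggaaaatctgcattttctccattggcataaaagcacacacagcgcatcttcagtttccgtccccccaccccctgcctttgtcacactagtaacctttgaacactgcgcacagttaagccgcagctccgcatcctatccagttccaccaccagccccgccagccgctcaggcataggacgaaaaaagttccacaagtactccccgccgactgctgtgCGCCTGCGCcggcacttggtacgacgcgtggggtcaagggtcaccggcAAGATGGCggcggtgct
Sdhd: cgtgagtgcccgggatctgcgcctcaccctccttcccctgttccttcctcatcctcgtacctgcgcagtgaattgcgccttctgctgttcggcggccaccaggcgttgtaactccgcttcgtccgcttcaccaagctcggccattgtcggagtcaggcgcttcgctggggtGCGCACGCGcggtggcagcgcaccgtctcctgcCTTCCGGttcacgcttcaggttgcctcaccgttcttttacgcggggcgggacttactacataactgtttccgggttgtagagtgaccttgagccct
Cox6a1: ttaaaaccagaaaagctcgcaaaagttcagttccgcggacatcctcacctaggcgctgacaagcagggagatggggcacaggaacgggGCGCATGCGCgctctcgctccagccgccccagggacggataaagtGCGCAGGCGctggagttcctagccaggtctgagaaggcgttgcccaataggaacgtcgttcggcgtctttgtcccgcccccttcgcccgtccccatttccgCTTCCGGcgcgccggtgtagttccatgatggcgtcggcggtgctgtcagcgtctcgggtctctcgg
Cox6b2: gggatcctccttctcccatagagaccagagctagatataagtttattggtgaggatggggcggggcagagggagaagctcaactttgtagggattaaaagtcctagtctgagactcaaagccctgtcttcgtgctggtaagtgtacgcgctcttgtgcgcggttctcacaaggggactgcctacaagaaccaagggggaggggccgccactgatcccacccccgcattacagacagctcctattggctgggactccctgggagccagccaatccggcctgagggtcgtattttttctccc
Atp5pb: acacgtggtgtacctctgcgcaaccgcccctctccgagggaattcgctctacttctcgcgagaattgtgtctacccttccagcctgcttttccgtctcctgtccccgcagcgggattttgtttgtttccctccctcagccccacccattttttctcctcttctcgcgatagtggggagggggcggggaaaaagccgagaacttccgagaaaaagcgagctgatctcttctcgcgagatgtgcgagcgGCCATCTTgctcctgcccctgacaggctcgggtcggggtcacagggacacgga

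Complex I takes electrons from NADH and pumps protons. Its 38 subunit genes, grouped by symbol, had a median log2 fold change of -0.02 (range -0.42 to 0.39). Of them 22 were below 0 and 16 above 0, and 0 passed at an unadjusted p under 0.05. The ends of the range were *Ndufa4* (-0.42), now known as a subunit of complex IV, and its paralog *Ndufa4l2* (0.39). *Ndufs6* encodes a zinc-binding subunit of the arm that projects into the matrix, and it read 12.11, 12.30 and 12.56 on the KO milk arrays, against 12.64, 12.72 and 12.63 on the WT milk arrays (replicates 1, 2 and 3, in this order throughout). All KO milk values lay below all WT milk values, and KO milk replicate 3 was the nearest to them. The log2 fold change was -0.34 (standard error, SE, 0.18; limma unadjusted p = 0.0891, adjusted p = 0.9996), and it was -0.45 without KO milk replicate 3 (limma unadjusted p = 0.0234) but -0.23 without KO milk replicate 1, the lowest array (limma unadjusted p = 0.285). *Ndufb3*, an accessory subunit of the membrane arm, read 10.10, 10.03 and 9.36 with KO milk, against 10.26, 10.12 and 10.23 with WT milk. The groups did not overlap, and KO milk replicate 3 lay far below the other 5. Its log2 fold change was -0.37 (SE 0.22, limma unadjusted p = 0.118), or -0.14 without that array.

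*Ndufa4*, first assigned to complex I and now known as a subunit of complex IV, read 15.68, 15.75 and 14.76 with KO milk, against 15.70, 15.75 and 16.02 with WT milk. KO milk replicate 1 lay just below the WT milk range and replicate 2 at its middle array, and KO milk replicate 3 lay 1.02 below the mean of the other 5 arrays. The log2 fold change of -0.42 (SE 0.26) was -0.10 without that array. Its paralog *Ndufa4l2*, which hypoxia induces, read 5.15, 4.74 and 5.31 with KO milk, against 4.80, 4.50 and 4.75 with WT milk. Here KO milk replicate 2 lay inside the WT milk range. These levels lay far below the array medians of 6.89 to 6.92, so whether *Ndufa4l2* was above background is not known. The log2 fold change was 0.39 (SE 0.20, limma unadjusted p = 0.0806), with 0.55 when KO milk replicate 2 was left out (limma unadjusted p = 0.0230) and 0.26 when KO milk replicate 3 was (limma unadjusted p = 0.211). *Ndufv1*, the subunit that binds NADH, and *Ndufa10*, of the membrane arm, had fold changes of 0.21 and 0.28 (SE 0.17 and 0.18), and of 0.12 and 0.18 without KO milk replicate 3. *Ndufb4* and *Ndufb4b* are similar copies with fold changes of 0.18 (0.00 without KO milk replicate 3) and -0.03, and the sources used here do not say whether their probes separate the copies.

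The 8 assembly factors, which help to build complex I and are not part of the finished enzyme, had a median log2 fold change of -0.03 (range -0.32 to 0.28), and 0 passed. *Ndufaf6* read 8.03, 8.47 and 8.44 with KO milk, against 8.61, 8.57 and 8.73 with WT milk. Its groups did not overlap, and KO milk replicate 1 was the lowest. The log2 fold change was -0.32 (SE 0.19, limma unadjusted p = 0.111), and -0.18 with that array left out (limma unadjusted p = 0.392). *Ndufaf4* had 11.42, 11.87 and 11.11 with KO milk, against 11.67, 11.80 and 11.82 with WT milk, so KO milk replicate 2 exceeded all WT milk arrays and the other KO milk arrays lay below them. The fold change was -0.30 (limma unadjusted p = 0.187). It was -0.12 when KO milk replicate 3 was left out (limma unadjusted p = 0.539) and -0.50 when KO milk replicate 2 was (limma unadjusted p = 0.0342). *Ndufaf2*, a paralog of the subunit *Ndufa12*, stood at 0.28 (log2 fold change, SE 0.21), at 0.48 without WT milk replicate 1 (limma unadjusted p = 0.0352) and at 0.15 when WT milk replicate 2 was left out (limma unadjusted p = 0.522).

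Complex II, succinate dehydrogenase, also belongs to the citric acid cycle. Its 4 genes had the narrowest range of fold changes among the complexes (-0.05 to 0.09). It also had the fewest genes, and a range tends to be narrower with fewer members. *Sdha*, the flavoprotein that oxidizes succinate, read 9.80, 9.67 and 9.64 with KO milk, against 9.67, 9.68 and 9.90 with WT milk. *Sdhb*, the iron-sulfur subunit, read 12.76, 13.11 and 13.26 with KO milk, against 12.51, 13.02 and 13.32 with WT milk. The KO milk values of *Sdhb* lay inside the WT milk range. The fold changes of *Sdha*, *Sdhb* and the membrane anchors *Sdhc* and *Sdhd* were -0.05, 0.09, -0.05 and -0.02, with 95% intervals whose lowest bound was -0.45 and whose highest bound was 0.61.

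Complex III had a median log2 fold change of -0.02 over 9 genes (range -0.34 to 0.29), and 0 passed. *Cyc1* encodes cytochrome c1, the subunit that hands electrons to cytochrome c, and read 9.65, 9.93 and 9.62 with KO milk, against 9.28, 9.50 and 9.56 with WT milk. All KO milk values were higher, though KO milk replicate 3 and WT milk replicate 3 were close. Its log2 fold change was 0.29 (SE 0.18, 95% interval -0.11 to 0.68, limma unadjusted p = 0.139). *Uqcrb*, a small subunit, read 16.21, 16.07 and 15.43 with KO milk, against 16.22, 16.28 and 16.24 with WT milk. The groups barely separated, and the fold change of -0.34 was -0.11 without KO milk replicate 3. *Uqcrq*, another small subunit, had 12.20, 12.15 and 12.27 with KO milk, against 12.10, 11.95 and 12.04 with WT milk, a log2 fold change of 0.18 (SE 0.16). The core subunits *Uqcrc1* and *Uqcrc2* had fold changes of 0.11 (-0.06 without KO milk replicate 3) and -0.19, and *Uqcrfs1*, the Rieske iron-sulfur protein, one of 0.03 (0.17 without that array).

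Complex IV, cytochrome c oxidase, held the 1 gene below an unadjusted p of 0.05. *Cox6b2*, the testis isoform of subunit 6B, read 4.43, 4.15 and 4.08 with KO milk, against 4.61, 5.13 and 4.38 with WT milk. The groups overlapped, since KO milk replicate 1 lay above WT milk replicate 3, and WT milk replicate 2 stood above the other 5 by 0.80 on average. The log2 fold change was -0.49 (SE 0.22, limma unadjusted p = 0.0488, adjusted p = 0.9996), but the limma unadjusted p was 0.108 and 0.113 when KO milk replicate 2 or 3 was left out, and 0.0660 and 0.226 when WT milk replicate 1 or 2 was. The fold change was -0.28 with WT milk replicate 2 left out. The deposited values hold no detection call, and at these levels, far below the array medians of 6.89 to 6.92, whether *Cox6b2* was above background is not known. The counterpart expressed in most tissues, *Cox6b1*, had 14.17, 14.09 and 14.08 with KO milk, against 13.83, 13.87 and 14.08 with WT milk. Its log2 fold change was 0.19 (SE 0.17). Over the 18 genes of complex IV, which by symbol do not include *Ndufa4*, the median was -0.05, with 11 below 0 and 7 above 0.

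Several subunits of complex IV come as isoforms of different tissues, and for most of them both forms were on the array. *Cox4i1*, the general form of subunit 4, read 13.93, 13.76 and 14.70 with KO milk, against 13.74, 14.01 and 14.18 with WT milk. KO milk replicate 3 was the highest of the 6, and the fold change of 0.15 was -0.13 without it. *Cox4i2*, the form known from lung, read 6.54, 6.64 and 6.58 with KO milk, against 6.26, 6.42 and 6.52 with WT milk. The groups barely separated, with a fold change of 0.19 (SE 0.17, limma unadjusted p = 0.295). These levels lay below the array medians of 6.89 to 6.92, so whether *Cox4i2* was above background is not known. *Cox6a2*, the form of heart and skeletal muscle, read 7.36, 7.58 and 7.17 with KO milk, against 6.68, 8.07 and 7.86 with WT milk. WT milk replicate 1 lay below all others, and the fold change of -0.16 (SE 0.32) was -0.59 without it (limma unadjusted p = 0.0192). It was 0.10 with WT milk replicate 2 left out and 0.00 with WT milk replicate 3 left out, so its direction was not stable. *Cox7b2*, another testis form, read 7.30, 6.50 and 7.04 with KO milk, against 6.58, 6.35 and 6.63 with WT milk. KO milk replicate 2 lay inside the WT milk range, and the log2 fold change of 0.42 (SE 0.22, limma unadjusted p = 0.0838) was 0.65 without it (limma unadjusted p = 0.0107) but 0.25 without KO milk replicate 1 (limma unadjusted p = 0.315).

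*Cox7a1* and *Cox8b*, the forms of heart and skeletal muscle, had fold changes of -0.01 and -0.08, and the testis form *Cox8c* one of 0.15. *Cox8b* read 4.53 to 5.05, far below the array medians, and *Cox7a1* read 5.92 to 6.83, also below them. Whether either gene was above background is not known. The general form *Cox7a2* had a fold change of 0.00 (95% interval -0.44 to 0.45), and *Cox7a2l*, which helps complexes III and IV to join in supercomplexes, one of -0.01 (95% interval -0.40 to 0.37). *Cox8a*, *Cox7b* and *Cox6a1*, also general forms, shared a pattern. *Cox8a* read 16.32, 16.21 and 15.39 with KO milk, against 16.28, 16.30 and 16.32 with WT milk. *Cox7b*, on chromosome X, read 13.68, 13.81 and 12.69 with KO milk, against 13.59, 13.71 and 13.77 with WT milk, and *Cox6a1* read 16.63, 16.50 and 16.02 with KO milk, against 16.83, 16.50 and 16.77 with WT milk. In each of the 3, KO milk replicate 3 was the lowest array, and the fold changes of -0.33, -0.30 and -0.32 were -0.03, 0.05 and -0.14 without it.

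**Figure D2:**
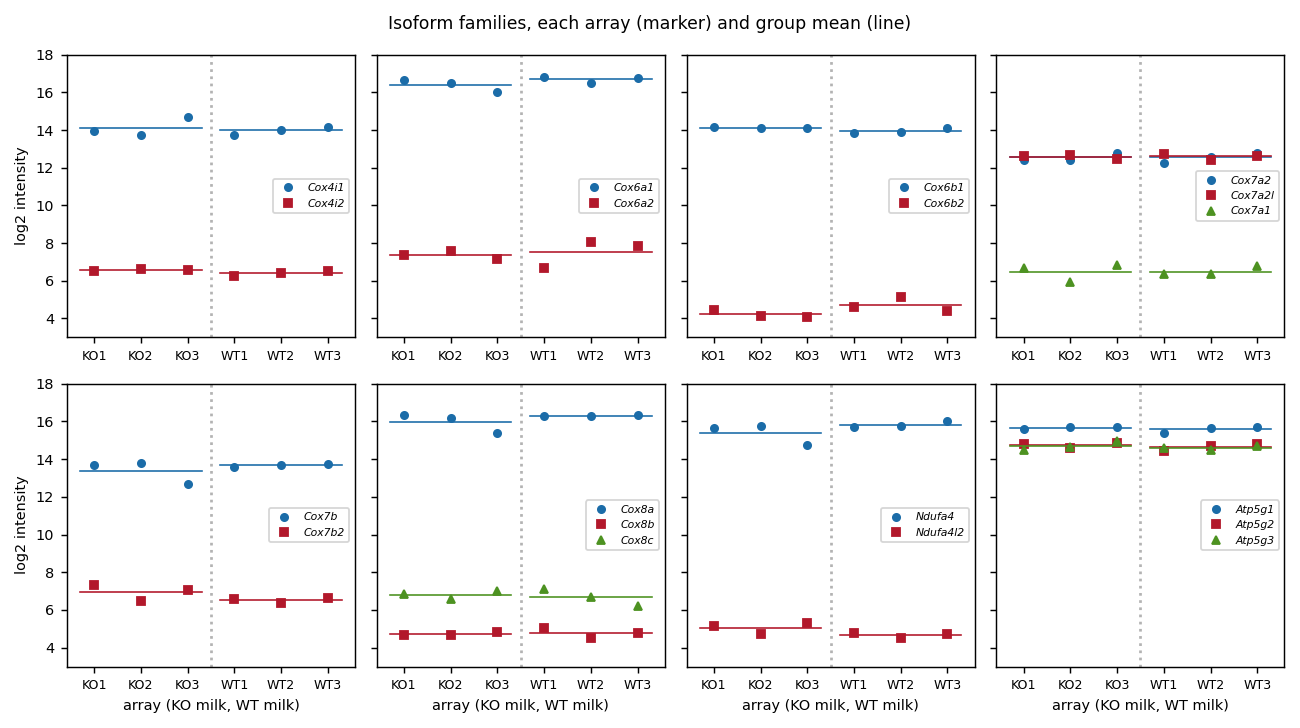
Log2 intensity (y axis) of isoform families of complex IV, of *Ndufa4* and of the c ring of complex V on each array (x axis, KO milk left, WT milk right), with lines for group means of 3 arrays. Levels of different genes depend on their probes, and within a gene the group means lie within 0.49 of each other.

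Complex V had a median log2 fold change of -0.03 over 17 genes (range -0.44 to 0.18), and 0 passed. *Atp5pb* encodes subunit b of the stalk that holds the catalytic head in place, and read 13.51, 13.59 and 13.00 with KO milk, against 13.83, 13.61 and 13.99 with WT milk. The groups did not overlap, though replicate 2 of KO milk and of WT milk nearly met, and KO milk replicate 3 was the lowest. Its log2 fold change was -0.44 (SE 0.21, 95% interval -0.90 to 0.01, limma unadjusted p = 0.0563), and -0.26 without KO milk replicate 3. The limma unadjusted p was 0.0360 with KO milk replicate 2 left out and 0.0472 with WT milk replicate 2 left out. It was 0.0594 and 0.181 with KO milk replicate 1 or 3 left out, and 0.109 and 0.173 with WT milk replicate 1 or 3 left out. *Atp5j*, coupling factor 6 of the same stalk, had a fold change of -0.21 (SE 0.21), or -0.04 without KO milk replicate 3. *Atp5b*, the catalytic beta subunit, read 17.09, 17.15 and 17.10 with KO milk, against 16.79, 16.96 and 17.05 with WT milk, a log2 fold change of 0.18 (SE 0.17). *Atp5a1*, the alpha subunit, was at -0.03. The 3 genes for the same mature subunit c of the rotor ring, *Atp5g1*, *Atp5g2* and *Atp5g3*, had fold changes of 0.09, 0.12 and 0.10, and their groups overlapped. Without KO milk replicate 3 these were 0.06, 0.06 and -0.04.

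Most genes of the set ranked the WT milk arrays alike, while the group medians differed little. Relative to the WT milk mean of each gene, their median level was -0.05, 0.01 and 0.03 on the KO milk arrays, and -0.11, -0.02 and 0.16 on the WT milk arrays. The KO milk medians thus lay inside the WT milk range. WT milk replicate 3 was the highest WT milk array for 72 of the 94 genes (76.6%, beside 32.9% of all clusters) and WT milk replicate 1 the lowest for 55 (58.5%, beside 37.2%). The median difference between those 2 arrays was 0.25 over the set and 0.02 over all clusters. Each complex had its highest WT milk median on replicate 3, from 0.07 for the assembly factors to 0.22 for complex II. Among brighter clusters, with a mean above 10, WT milk replicate 3 was highest for 56 of 67 genes of the set (83.6%, beside 38.0% of all such clusters). Genes of 1 array are not independent replicates, so these counts describe the arrays. The 76 genes with Mrpl and Mrps symbols, which encode proteins of the mitochondrial ribosome, had medians of -0.02, 0.01 and -0.04 on the KO milk arrays, and -0.09, -0.04 and 0.10 on the WT milk arrays. A list of enzymes of the citric acid cycle and of pyruvate dehydrogenase had medians of -0.03, -0.03 and -0.23 on the KO milk arrays. On the WT milk arrays its medians were 0.03, -0.04 and 0.01, so it did not share the order of the WT milk arrays.

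**Figure D3:**
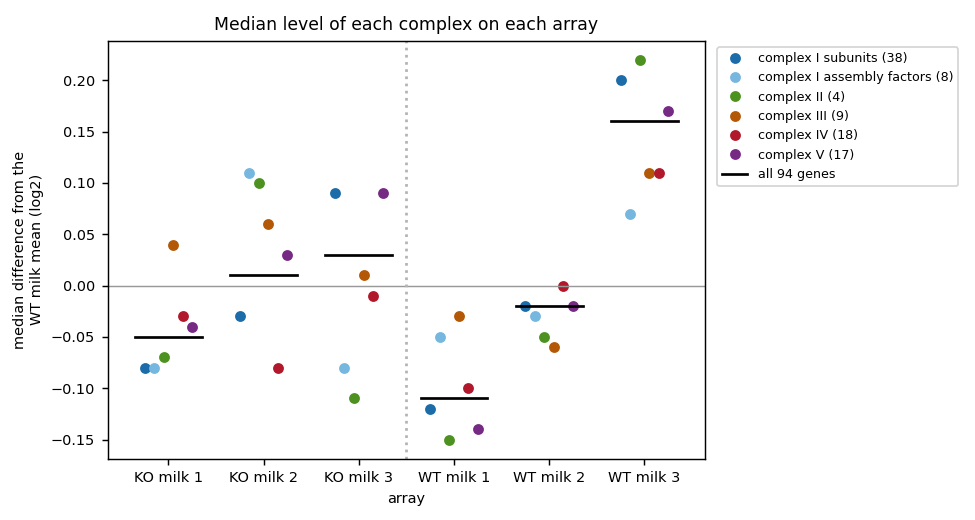
Median difference from the WT milk mean (log2, y axis) of each complex (coloured points, number of genes in brackets) and of all 94 genes (black bars) on each array (x axis). The black bars lie between -0.05 and 0.03 for KO milk and between -0.11 and 0.16 for WT milk.

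KO milk replicate 3 carried most of the large downward departures. Each array was set against the mean of the other 5, gene by gene, with a departure of more than 0.5 counted. On KO milk replicate 3, 15 genes lay lower by that much and 4 higher, whereas on each of the other 5 arrays 1 to 4 lay lower and 0 to 4 higher. The lower ones were led by *Ndufa4* and *Cox7b*, at -1.02 each, and *Cox8a*, at -0.90. *Ndufb3*, *Uqcrb*, *Ndufs7*, *Atp5pb* and *Ndufaf7* followed at -0.79, -0.78, -0.76, -0.71 and -0.68. The others were *Ndufs1*, *Cox6a1*, *Ndufaf4*, *Cox6c*, *Ndufa5*, *Atp5md* and *Atp5j*, between -0.62 and -0.55. The 4 higher ones were *Cox4i1*, *Ndufb4*, *Ndufa13* and *Ndufa4l2*, at 0.78, 0.56, 0.53 and 0.53. The list was drawn after the values were seen, and carries no test. The array departed from the others across the transcriptome too. A share of 16.0% of the set and 12.4% of all clusters lay lower by over 0.5 on it, and among clusters with a mean above 10 the shares were 20.9% and 23.1%. Without this array the fold change of 25 of the 94 genes changed sign, as 26 did when WT milk replicate 3 was left out and 7 to 16 with any other array left out. The median residual SD of the set was 0.174, against 0.223 with it.

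**Figure D4:**
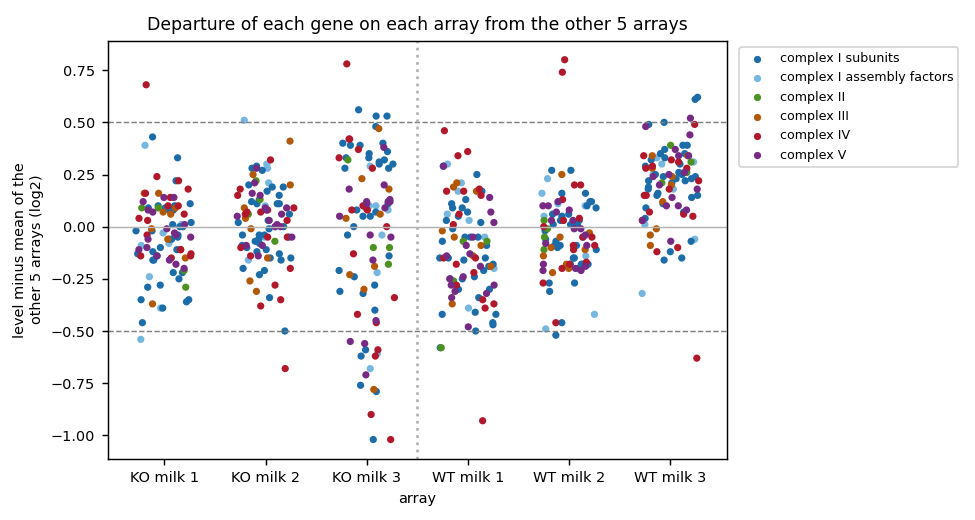
Level of each of the 94 genes on each array minus its mean on the other 5 arrays (log2, y axis), coloured by complex, with dashed lines at 0.5 in either direction. KO milk replicate 3 has 15 genes below the lower line, and WT milk replicate 3 lies mostly above 0.

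Other genes of the pathway were described from hand-written lists. Of 39 listed assembly factors of complexes I to V outside the set, 36 were measured, 1 passed as lower and 0 as higher (unadjusted p under 0.05). The share passing as lower was 2.78%, beside 1.66% of all clusters. The median fold change of the 36 was -0.05 on the log2 scale. The lower one was *Tmem186*, a factor of complex I assembly, at 7.02, 6.80 and 6.94 with KO milk, against 7.47, 7.60 and 7.13 with WT milk (log2 fold change -0.48, SE 0.19, limma unadjusted p = 0.0259). Its groups did not overlap, as for 3 of the 36 with KO milk lower (8.33%, beside 4.17% of all clusters). KO milk was higher without overlap for 1 factor (2.78%, beside 4.26%). Of genes for cytochrome c, ubiquinone synthesis, electron transfer flavoproteins and the inhibitor of the ATP synthase, 13 of 15 were measured and 0 passed (median -0.06). Of the regulators of mitochondrial biogenesis, among them *Nrf1*, *Gabpa* and *Tfam*, 14 of 15 were measured and 0 passed (median -0.10). Of 16 genes for enzymes of the citric acid cycle and of pyruvate dehydrogenase, 15 were measured and 0 passed (median -0.03). The subunits encoded in mitochondrial DNA were not analysed here.

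On the series as a whole, limma gave 357 higher and 369 lower clusters at an unadjusted p under 0.05 and called 0 after adjustment. Array medians were 6.89 to 6.90 with KO milk, against 6.89 to 6.92 with WT milk. Of 10 listed markers of hippocampal neurons 8 were measured, 1 passed as higher and 0 as lower, with a median fold change of 0.03. *Prox1*, of dentate granule cells, passed (13.96 to 14.39 with KO milk, against 13.44 to 13.74 with WT milk), and *Neurod6* (14.06 to 15.30 with KO milk, against 14.40 to 15.13 with WT milk), *Wfs1* (-0.26) and *Spink8* (-0.48) did not. Of 11 measured myelin markers 10 were lower at an unadjusted p under 0.05, with a mean signal of 9.34 to 10.09 in KO milk, against 10.48 to 10.77 in WT milk. Of 8 thalamus markers 4 were lower at that threshold (*Tcf7l2*, *Slc17a6*, *Rora* and *Rgs16*), with a mean signal of 8.38 to 8.52 in KO milk, against 8.72 to 9.04 in WT milk. The choroid plexus markers, of which 2 of 11 passed as lower, had a mean signal of 6.26, 8.77 and 5.98 with KO milk, against 8.70, 8.13 and 7.69 with WT milk. Their part in the levels of the respiratory genes was not tested beyond a fit with choroid plexus signal as a covariate. In it 0 of the 94 genes were lower and 0 higher, beside 227 and 195 of all 22206 clusters. With Y-linked signal as a covariate 1 gene was lower and 0 higher, beside 272 and 207 of all clusters. Of the set, *Ndufa1*, *Ndufb11* and *Cox7b* lie on chromosome X, with fold changes of -0.18, 0.01 and -0.30.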

How the data were processed

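Hippocampal RNA of 6 pups (3 per group) was measured on Clariom S mouse arrays. The authors deposited 1 log2 intensity for each transcript cluster and array. Per the labels, Transcriptome Analysis Console with RMA was used, a method that corrects background, sets the arrays to 1 distribution and sums up probes. The genome build and annotation version are not given in the sources used here. No scanner files were used, and the number of arrays limits the precision.

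Columns were assigned by the mother genotype in the labels. Symbols came from the platform annotation, and the brightest cluster of a symbol by its mean over the 6 arrays represented it. All 94 symbols had an entry in the RefSeq table (GRCm38.p6). The difference between KO milk and WT milk was estimated for all 22206 clusters, unfiltered, by lmFit and eBayes of limma (version 3.58.1, R 4.3.3), with Benjamini-Hochberg adjustment and a threshold of 0.05. The fit was tested on simulated arrays. Genes named are those at an unadjusted p under 0.05, the 3 smallest p per complex and the isoform families. Genes that stood out by non-overlap or on KO milk replicate 3, and further subunits named for their role, were added after their values were seen. The members, lists and motifs were chosen with earlier results of these data known. Counts of members were read against the same count over all clusters, and no test was run on the set as a whole.

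The alternatives were other normalizations (quantile, cyclic loess, common median), a filter on intensity, an intensity trend with a robust prior, and array weights. Further ones were an unmoderated Student's t-test, blocking on replicate number and fits without each single array. The last were Y-linked and choroid plexus signal as covariates, and the mean of all clusters of a symbol. The paper computed its array p-values in Transcriptome Analysis Console, not by this t-test. An alternative changed the call of a gene only if it crossed an unadjusted p of 0.05, and a sign change of a value that passed in neither fit was only counted.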

Additional observations from a re-analysis of the deposited data

How the results depend on the processing

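After adjustment over all clusters, 0 of the 94 genes passed under each of the 17 alternatives. The mean of all clusters of a symbol could not change the levels of these genes, since each of the 94 lay on 1 cluster. At an unadjusted p under 0.05, the count of higher genes was 0 in the reported fit and 1 with array weights (*Cox7b2*). It was 1 with the unmoderated Student's t-test (*Uqcrq*). When single arrays were left out it ran from 0 to 2 (2 when KO milk replicate 2 was, 1 when WT milk replicate 1 was). Over all 22206 clusters the higher ones numbered 357 in the reported fit, 589 with array weights and 406 with the unmoderated Student's t-test. They numbered 572 without KO milk replicate 2 and 281 without WT milk replicate 1. The count of lower genes was 1 in the reported fit (*Cox6b2*). It was 0 with a common median, with the unmoderated Student's t-test, with the replicate block and with choroid plexus signal as a covariate. It was also 0 above the median intensity, where 85 genes were fitted and *Cox6b2* was filtered out. It was 2 with an intensity trend (*Atp5pb* and *Cox6b2*) and with array weights (*Ndufaf6* and *Ndufs6*). It ran from 1 to 2 when single arrays were left out, but the gene changed. *Cox6b2* was lower without KO milk replicate 1 or WT milk replicate 3. Others were *Ndufs6* without KO milk replicate 3, *Cox6a2* without WT milk replicate 1 and *Atp5pb* without WT milk replicate 2. Without KO milk replicate 2 the 2 genes were *Atp5pb* and *Ndufaf4*. Over all clusters, 369 were lower in the reported fit, 363 with an intensity trend and 576 with array weights. The number was 315 with a common median, 358 with the t-test, 390 with the replicate block and 227 with choroid plexus signal. It was 804 without KO milk replicate 2 and 307 to 439 without any other single array. Above the median intensity it was 190 of 11103 clusters. Of 554 values of 33 named genes under the alternatives, 532 kept their side of the threshold, 13 passed newly, 9 no longer passed and 0 reversed. Only *Cox6b2* passed in the reported fit, so all 9 values that no longer passed were its own. Most of the 532 belong to genes that passed in neither fit, and so do not show a stable call.

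The median log2 fold change of the set was -0.02 in the reported fit, ran from -0.09 to 0.06 when single arrays were left out and from -0.08 to 0.01 under the other alternatives. It was highest without WT milk replicate 3, where 32 of 94 genes were below 0, and lowest without WT milk replicate 1, where 66 were. The median of complex III ran from -0.07 to 0.09 and that of complex V from -0.06 to 0.10 when single arrays were left out. The median of complex IV was -0.13 above the median intensity and with choroid plexus signal as a covariate, in place of -0.05. The first of these dropped genes, and the cause of the second was not tested. With Y-linked signal as a covariate the median of the set was 0.00 and 1 gene was lower. Under other normalizations, WT milk replicate 3 was the highest WT milk array for 65 to 69 of the 94 genes, against 72 as reported.

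The replicate numbers did not pair the arrays. Deviations from the group means of same-numbered arrays correlated at 0.02, -0.13 and 0.02 for numbers 1, 2 and 3. The paired fit (replicate block) gave *Cox6b2* an unadjusted p = 0.0503 from limma.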
